A study of Mus musculus with 45 samples.

Results

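The colitis severity gradient describes how strongly each distal colon of the first Il10-knockout cohort expressed a set of inflammatory genes, and which other transcripts moved with that level. It rests on 26 of the 45 libraries of the study, chosen by genotype and cohort. All 26 carry the Il10 knockout, and 10 received vehicle, 9 compound 13 at a dose of 30 mg/kg and 7 the lower dose of 10 mg/kg. By the title of the series, compound 13 blocks GPR4 selectively. GPR4 is a cell-surface receptor activated by acid outside the cell. Colon of untreated wild-type mice (8 libraries) gave the baseline. A later cohort sampled at day 77, also Il10-knockout, gave 5 vehicle libraries and 5 from mice treated with an antibody to p40, the subunit that interleukins 12 and 23 share. A single further knockout library was left out because its title and treatment field name different doses. Age, sex and batch are not in the labels used here. Nor do the labels tie libraries to individual mice, so the p-values below describe variation among libraries, part of which may be technical.

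Each library received a severity score, the mean of log2(TPM + 1) over S100a8, S100a9, Lcn2, Nos2, Duoxa2 and Il1b. TPM is a transcript abundance corrected for gene length and depth. The libraries were thus ordered by values selected on 6 inflammatory genes, which are described here and not tested. All other genes were set against the score with treatment group as a covariate, and no library was sorted into a mild or severe class. Score and tested genes come from the same libraries, and the score itself holds neutrophil and epithelial defence genes.

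Interleukin 10 restrains the response of macrophages and T cells to gut bacteria, and mice without it develop colitis that depends on interleukin 23 and T cells. In inflamed colon, macrophages and epithelium release CXC chemokines that draw neutrophils from the blood. Interferon gamma, interleukin 17 and interleukin 22 switch on epithelial defence genes, among them oxidases, antimicrobial lectins and metal-binding proteins. S100a8 and S100a9 encode the subunits of calprotectin, a neutrophil protein measured in stool as a test for colitis. Lcn2 encodes a scavenger of bacterial iron carriers, Nos2 the inducible nitric oxide synthase, Duoxa2 the maturation factor of an epithelial oxidase and Il1b interleukin 1 beta.

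Several chemokines that attract neutrophils had steep slopes along the gradient, and their promoters are shown because 3 of them hold the same motif. RefSeq promoters (GRCm38.p6, 250 bases before to 50 after the gene start) were found for 4 of the 6 neutrophil-attracting factors listed, namely Cxcl1, Cxcl2, Cxcl3 and Csf2. They were searched on both strands for a form of the NF-kappaB motif, read as GGGA, any base, TT, any base and CC. Cxcl1, Cxcl2 and Cxcl3 each held 1 match, and 394 of the 32851 promoters of the table (1.2%) held one. Each line gives 70 bases of the plus strand with the match in capitals.
Cxcl1, chr5:90891144-90891213: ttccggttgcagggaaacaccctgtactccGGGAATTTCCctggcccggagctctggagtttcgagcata
Cxcl2, chr5:90903772-90903841: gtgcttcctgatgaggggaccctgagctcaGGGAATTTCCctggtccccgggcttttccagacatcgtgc
Cxcl3, chr5:90785998-90786067: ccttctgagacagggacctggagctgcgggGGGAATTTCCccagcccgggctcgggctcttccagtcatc
The match began 71, 97 and 73 bases before the gene start of Cxcl1, Cxcl2 and Cxcl3, respectively. It describes letters only, and binding was not measured.

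Severity varied widely within every treatment group. In vehicle, library 3 scored 2.13, library 8 scored 3.85, libraries 1, 4, 5, 6, 7 and 9 scored 4.62 to 5.64, library 10 scored 6.21 and library 2 scored 8.54 (mean 5.11 ± 1.64 SD, n = 10). At 30 mg/kg, library 5 scored 2.06, libraries 1, 2, 4, 6, 7 and 9 scored 3.85 to 4.69, library 3 scored 5.88 and library 8 scored 7.37 (4.55 ± 1.46 SD, n = 9). At 10 mg/kg, libraries 5, 6 and 3 scored 2.96, 4.40 and 4.96, and libraries 4, 7, 1 and 2 scored 5.99, 6.56, 7.22 and 7.73 (5.69 ± 1.68 SD, n = 7). The 3 groups overlapped over most of their range. Wild-type libraries scored 1.09 to 1.78 (1.43 ± 0.25 SD, n = 8), below all 26 knockout libraries.

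**Figure D1:**
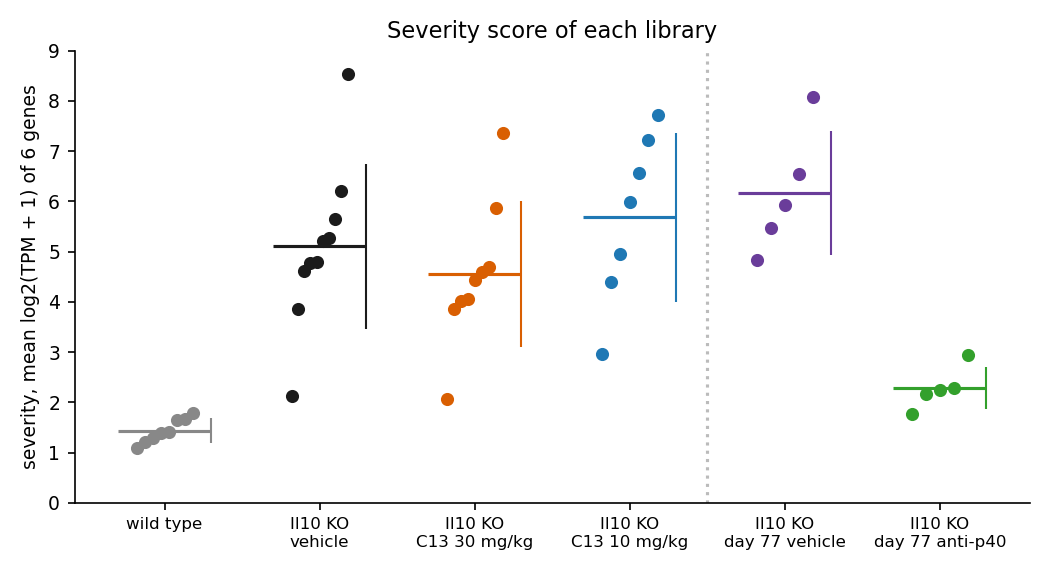
Severity score (mean log2(TPM + 1) of 6 genes, vertical axis) of every library by group, with group means (horizontal lines) and SD (vertical lines). The first-cohort knockout groups overlap and lie above the 8 wild-type libraries, and the day 77 groups right of the dotted line come from a separately normalized table.

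The score genes contributed unequally to this order. S100a8 (chromosome 3, 90668978 to 90670035, GRCm38) was 1.05 to 2969.5 TPM in vehicle (median 49.6), 0 to 851 TPM at 30 mg/kg (median 27.4) and 0.20 to 2919.5 TPM at 10 mg/kg (median 135), against 0 to 2.49 TPM in wild type. In 23 of 26 knockout libraries S100a8 exceeded every wild-type library, so 3 libraries overlapped with wild type. Nos2 (chromosome 11, 78920787 to 78960254) was 2.68 to 468 TPM in vehicle (median 107), 6.92 to 206 TPM at 30 mg/kg (median 92.4) and 50.7 to 327 TPM at 10 mg/kg (median 144), against 0.69 to 3.0 TPM in wild type, and 25 libraries exceeded wild type. Duoxa2 (chromosome 2, 122298900 to 122302885) was 14.2 to 287 TPM in vehicle (median 91.6), 55.5 to 168 TPM at 30 mg/kg (median 92.4) and 80.8 to 213 TPM at 10 mg/kg (median 113), and all 26 libraries exceeded the wild-type maximum of 9.50 TPM. Duoxa2 was thus raised even in the libraries of lowest score, while its SD over the 26 libraries was only 0.81 log2 units, beside 3.22 for S100a8.

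S100a9 (chromosome 3, 90692632 to 90695721) had medians of 23.4, 12.8 and 103 TPM in vehicle, 30 mg/kg and 10 mg/kg against 0 to 2.24 TPM in wild type. Il1b (chromosome 2, 129364570 to 129371139) had medians of 10.9, 6.83 and 14.1 TPM in vehicle, 30 mg/kg and 10 mg/kg against 1.02 to 3.54 TPM, and Lcn2 (chromosome 2, 32384633 to 32388252) of 8.07, 5.29 and 9.80 TPM in vehicle, 30 mg/kg and 10 mg/kg against 0.86 to 2.20 TPM. Both exceeded wild type in 24 of 26 libraries. As a description of the score, each gene's correlation with the mean of the other five, after removal of group means, was between 0.76 for Nos2 and 0.94 for S100a9.

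**Figure D2:**
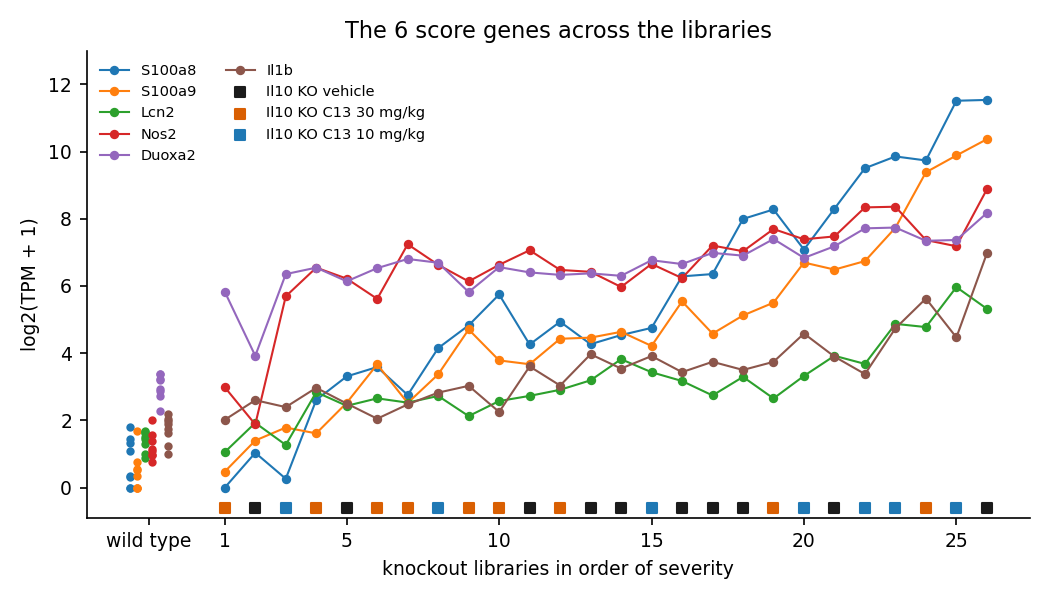
Level (log2(TPM + 1), vertical axis) of the 6 score genes in the 26 knockout libraries in order of severity (horizontal axis), with wild-type libraries at the left and squares for the treatment group. S100a8 spans 0 to 2969.5 TPM and Duoxa2 14.2 to 287 TPM.

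None of the 6 score genes was called between treatments. Set against vehicle, S100a8 had a log2 fold change of -1.34 ± 1.38 (SE) at 30 mg/kg and 1.03 ± 1.42 at 10 mg/kg (edgeR adjusted p = 0.979 and 0.800). Il1b had -0.96 ± 0.64 and -0.44 ± 0.68 (edgeR adjusted p = 0.917 and 0.826). Of 16948 genes edgeR called 0 at 30 mg/kg (0.0%, 1004 with an unadjusted p under 0.05) and 2 at 10 mg/kg (0.0118%, 1865 unadjusted), and DESeq2 called 3 and 70. Standard errors of this size leave differences of a few fold in S100a8 undetectable.

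Many transcripts moved with severity. In edgeR's quasi-likelihood test 6046 of 17672 genes had a slope with an adjusted p under 0.05 (34.2%), 2899 higher (16.4%) and 3147 lower (17.8%) in colons of higher score. A slope is the log2 fold change for 1 unit of severity. The median size of a called slope was 0.18, and 40 genes had a slope of at least 1 and 60 a slope of -1 or lower. Of the calls 47.95% were higher, but with limma on log2(TPM + 1), which called 4677 of 14764 genes (31.7%), the share was 31.37%. The 2 fits differ in test, filter, unit and normalization together, and with RLE scaling alone edgeR gave 46.35%.

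Total counts were 23215057 to 35439607 per library and mitochondrial genes took 3.98% to 6.82% of counts. Their correlations with severity after removal of group means were r = 0.10 and -0.21, and 16177 to 20921 detected genes gave r = -0.39 (permutation p = 0.665, 0.301 and 0.0633, adjusted over 5 measures 0.832, 0.501 and 0.158). In rank the 3 measures gave rho = 0.17, -0.32 and -0.43 (permutation p = 0.427, 0.128 and 0.0397, adjusted 0.534, 0.214 and 0.0992). Markers of colon epithelium were present throughout, with Cdx2 at 33.7 to 148 TPM and Krt20 at 483 to 2284 TPM. Of the 6 markers Krt20, Cdh17 and Vil1 rose with severity (0.36 ± 0.06, 0.25 ± 0.04 and 0.18 ± 0.04, edgeR adjusted p = 1.01e-04, 1.21e-05 and 5.32e-04), and none of the 6 was called with the muscle covariate described next. The level of muscle wall genes moved with severity. The mean log2(TPM + 1) of 9 smooth muscle genes was 4.16 to 8.92 in the knockout libraries and 8.13 to 9.38 in wild type. Its correlation with severity was r = -0.79 and rho = -0.75 over 26 libraries (permutation p = 1e-05 and 3e-05, adjusted 5e-05 and 0.00015), and r was -0.72 without the 2 libraries farthest from the median score (vehicle library 2 and 10 mg/kg library 2). Within groups r was -0.91 in vehicle, -0.61 at 30 mg/kg and -0.80 at 10 mg/kg, and rho was -0.90, -0.45 and -0.71. With this muscle score as a covariate edgeR called 1349 genes (7.63%), 737 higher (4.17%) and 612 lower (3.46%), and 896 of them were also called without it. Because the muscle score and severity are correlated, this fit can estimate slopes less precisely. A call lost in it does not by itself mean a smaller slope. In whole tissue fewer cells of a type and less RNA per cell cannot be told apart.

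Rank correlations were compared among called genes of at least 5 mean TPM with the same sign in all 3 groups, passing over Gm and Rik symbols. Among these, Ripk3, a kinase of the necroptosis pathway (chromosome 14, 55784995 to 55788865), followed severity most closely in rank. Ripk3 was 13.9 to 124 TPM in vehicle (median 44.5), 12.5 to 76.7 TPM at 30 mg/kg (median 36.9) and 25.6 to 73.6 TPM at 10 mg/kg (median 53.0). All 26 knockout libraries lay above the wild-type range of 7.39 to 11.2 TPM. After removal of group means its rho was 0.94 and its r 0.92, each with p = 1e-05, the smallest that 100000 permutations within groups can give. Ripk3 was picked for its rho, and these p-values are not adjusted for that choice. Without the 2 farthest libraries r was 0.90, and rho was 0.96, 0.92 and 0.96 within vehicle, 30 mg/kg and 10 mg/kg. The slope of Ripk3 was 0.50 ± 0.04 (SE, edgeR adjusted p = 2.55e-09).

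Cxcl5, a neutrophil-attracting chemokine (chromosome 5, 90759360 to 90761624), was 0 to 58.6 TPM in vehicle (median 2.18), 0.07 to 53.5 TPM at 30 mg/kg (median 0.41) and 0.36 to 17.1 TPM at 10 mg/kg (median 2.0), against 0 to 0.31 TPM in wild type. It exceeded the wild-type maximum in 19 of 26 libraries, so the libraries of lower score overlapped with wild type. Its slope was 1.70 ± 0.13 (edgeR adjusted p = 2.55e-09). Sprr2h, a small proline-rich protein of stressed epithelium, was listed at 0 in every wild-type library and reached 46.9, 36.5 and 59.1 TPM in vehicle, 30 mg/kg and 10 mg/kg. Its slope was 1.94 ± 0.20 (edgeR adjusted p = 2.89e-07). Reads can be shared wrongly within the Sprr2 family, so its level is uncertain.

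The other rising genes of highest rank correlation were Plscr1, Trim15, Clic1, Hk2, Zc3h12a, Mfsd2a, Gch1, Sprr1a and Gml. Trim15, a protein of the TRIM family, had medians of 39.9, 27.4 and 60.7 TPM in vehicle, 30 mg/kg and 10 mg/kg against 2.63 TPM in wild type and a slope of 0.86 ± 0.07 (edgeR adjusted p = 2.04e-08). Mfsd2a, a lysophospholipid transporter, had medians of 23.0, 7.56 and 27.3 TPM in vehicle, 30 mg/kg and 10 mg/kg against 0.49 TPM, exceeded wild type in all 26 libraries and had a slope of 0.95 ± 0.08 (edgeR adjusted p = 3.51e-08). Hk2 encodes hexokinase 2, which starts glycolysis, and Gch1 starts the synthesis of the cofactor that nitric oxide synthases need. Their slopes were 0.44 ± 0.05 and 0.36 ± 0.04. Zc3h12a, a nuclease that degrades cytokine messages, had a slope of 0.40 ± 0.04 and exceeded wild type in 25 libraries.

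Among called genes of at least 5 mean TPM with the same sign in all 3 groups, Lrg1, Reg3g, Clca4b and Gml followed Sprr2h and Cxcl5 in slope. Lrg1, an acute-phase glycoprotein, was 3.13 to 377 TPM in vehicle (median 13.8), 0.51 to 217 TPM at 30 mg/kg (median 6.59) and 3.74 to 202 TPM at 10 mg/kg (median 18.1), against 1.94 to 7.53 TPM in wild type. Its slope was 1.37 ± 0.10 (edgeR adjusted p = 2.55e-09), and 17 of 26 libraries exceeded wild type while 2 lay below it. Clca4b, a member of the CLCA family of secreted epithelial proteins, was 2.19 to 3369 TPM in vehicle (median 481), 13.6 to 2005 TPM at 30 mg/kg (median 486) and 65.0 to 2689 TPM at 10 mg/kg (median 831), and all 26 libraries exceeded the wild-type maximum of 0.55 TPM. Its slope was 1.22 ± 0.19 (edgeR adjusted p = 5.84e-05), and it did not pass with the muscle covariate (edgeR adjusted p = 0.0761).

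Within the limits given for Ripk3, Fgfr2, a receptor for fibroblast growth factors, fell most closely with severity in rank. Fgfr2 was 14.9 to 56.2 TPM in vehicle (median 19.9), 15.3 to 50.7 TPM at 30 mg/kg (median 25.8) and 12.6 to 32.5 TPM at 10 mg/kg (median 15.9), and 23 of 26 libraries lay below the wild-type range of 38.4 to 57.1 TPM. Its rho was -0.92 and its r -0.88 (permutation p = 1e-05 for each, not adjusted for its choice by rho). Its slope was -0.27 ± 0.04 (edgeR adjusted p = 2.96e-06). The other falling genes of strongest rank correlation were Fam193b, Pink1, Fhl1, Retreg1, Tns3, Sun2, Calcoco1, Pdk2, Znrd1as, Hexim1 and Zfp467.

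Sun2, which anchors the nucleus to the cytoskeleton, was 9.49 to 54.3 TPM in vehicle (median 18.9), 12.5 to 46.6 TPM at 30 mg/kg (median 21.5) and 7.55 to 27.4 TPM at 10 mg/kg (median 17.9), and 25 of 26 libraries lay below the wild-type minimum of 51.0 TPM. Its slope was -0.34 ± 0.03 (edgeR adjusted p = 1.35e-08). Pink1, which starts the removal of damaged mitochondria, had a slope of -0.18 ± 0.03, and Retreg1, a receptor for turnover of the endoplasmic reticulum, of -0.32 ± 0.04. Pdk2, which restrains pyruvate oxidation, had a slope of -0.33 ± 0.04. Each of the 3 had an edgeR adjusted p under 0.05, the highest being 4.35e-05 for Pink1. Pink1 and Retreg1 lay below the wild-type range in 24 and 24 libraries.

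Over these 24 genes, chosen by the strength of their rank correlation, r was 0.866 to 0.929 for the rising and -0.92 to -0.81 for the falling genes. The permutation p was 1e-05 throughout, but it takes no account of that choice from 17672 genes and adds no support. Without the 2 farthest libraries r was 0.82 to 0.911 and -0.901 to -0.834. With the muscle covariate 22 were called by edgeR, and Clic1 (adjusted p = 0.0587) and Znrd1as (0.135) were not.

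Among called genes held to the same limits, the steepest falls belonged to Slc30a10, Car3, Mettl7a2, Cfd, Cyp2e1 and Retn. Slc30a10, a manganese exporter, was 0.03 to 41.6 TPM in vehicle (median 0.87), 0.18 to 26.7 TPM at 30 mg/kg (median 1.81) and 0 to 6.33 TPM at 10 mg/kg (median 0.57), and 25 of 26 libraries lay below the wild-type minimum of 28.3 TPM. Its slope was -1.41 ± 0.23 (edgeR adjusted p = 8.72e-05), and -0.95 with the muscle covariate (adjusted p = 0.130). Mettl7a2, a methyltransferase-like protein, lay below the wild-type range in all 26 libraries and had a slope of -1.10 ± 0.21 (edgeR adjusted p = 2.47e-04).

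Car3, Cfd, Cyp2e1 and Retn, which fat tissue expresses strongly, had slopes of -1.12 ± 0.32, -1.05 ± 0.28, -0.91 ± 0.32 and -0.90 ± 0.26 (edgeR adjusted p = 0.00846, 0.00605, 0.0312 and 0.00823). None of the 4 passed with the muscle covariate, and the call of Cyp2e1 was lost without vehicle library 2, 3 or 10 or 30 mg/kg library 8. Their levels were uneven in wild type too, with Car3 at 0 to 253 TPM and Cfd at 0 to 234 TPM. Of 6 adipocyte markers 4 fell, beside 17.8% of all genes, and 1 fell without vehicle library 2, vehicle library 3 or 30 mg/kg library 8. The summed adipocyte level, as mean log2(TPM + 1), was 1.14 to 5.55 in the knockout and 0.76 to 5.01 in wild-type libraries, and its part in these slopes was not tested.

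**Figure D3:**
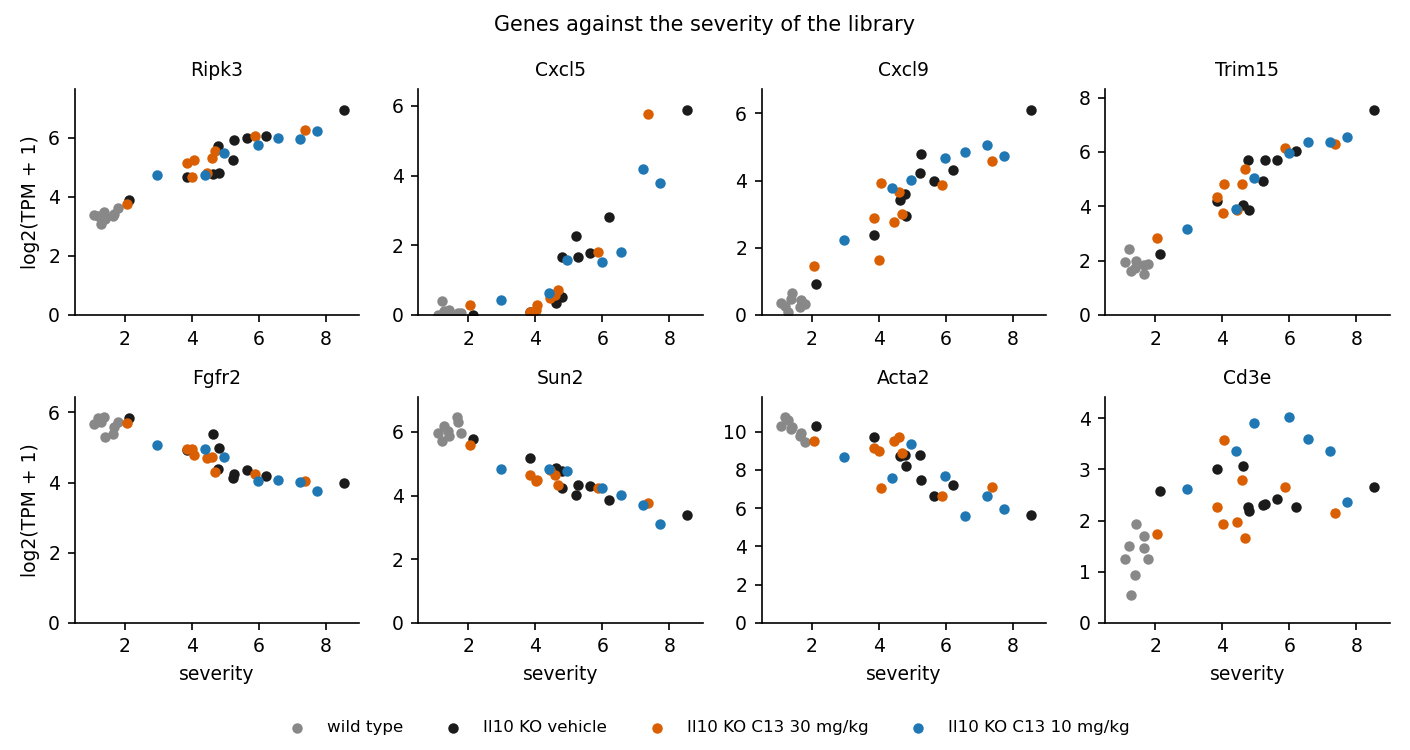
Level (log2(TPM + 1), vertical axis) of 8 genes against the severity score of the library (horizontal axis), 1 point per library, coloured by group. Ripk3, Cxcl5, Cxcl9 and Trim15 rise, Fgfr2, Sun2 and Acta2 fall, and the slope of Cd3e did not pass (edgeR adjusted p = 0.565).

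All 12 neutrophil markers rose, with a median slope of 0.72 beside -0.0063 over all genes, and 10 to 12 rose when any 1 library was left out. The list counts here and below stand beside the shares over all genes. These were 16.4% higher and 17.8% lower, and 4.17% and 3.46% with the muscle covariate. Ly6g was 255 to 1716 TPM in the knockout libraries and already 194 to 298 TPM in wild type, with a slope of 0.35 ± 0.06 (edgeR adjusted p = 6.45e-05). Its slope was 0.30 with the muscle covariate and 0.29 in vehicle alone, and neither passed (edgeR adjusted p = 0.0674 and 0.0708). Cd177 was 50.7 to 384 TPM against 10.3 to 23.3 TPM, with a slope of 0.41 ± 0.07 (edgeR adjusted p = 5.75e-05). Other members were scarce, with medians of 0.07 TPM for the chemokine receptor Cxcr2, 0.23 TPM for Retnlg and 0 for the collagenase Mmp8. In wild type the medians of Cxcr2, Retnlg and Mmp8 were 0, while those of Ly6g and Cd177 were 236 and 17.9 TPM. Which cells made the Ly6g and Cd177 RNA was not tested, so their levels cannot be read as neutrophil numbers. Cxcr2, Retnlg and Mmp8 reached 3.38, 15.1 and 1.03 TPM in the highest library. Fpr2, a receptor for formylated peptides, had a slope of 0.64 ± 0.08 (edgeR adjusted p = 1.01e-06). Under the muscle covariate 9 of the 12 rose.

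The neutrophil-attracting factors had a median slope of 1.21. All 5 that passed the expression filter rose, and 4 or 5 rose when any 1 library was left out, while Csf3 did not pass the filter. Cxcl1 was 0.90 to 35.6 TPM in vehicle (median 4.26), 0.53 to 21.8 TPM at 30 mg/kg (median 1.42) and 0.23 to 13.6 TPM at 10 mg/kg (median 6.64), against 0.08 to 1.0 TPM in wild type, with a slope of 0.92 ± 0.10 (edgeR adjusted p = 2.36e-07). Cxcl2 and Cxcl3 had slopes of 1.21 ± 0.10 and 1.41 ± 0.18 (edgeR adjusted p = 8.53e-09 and 1.73e-06). With the muscle covariate the slopes of Cxcl1, Cxcl2 and Cxcl3, whose promoters are printed above, were 0.93, 1.32 and 2.26, and each passed.

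Of 15 monocyte and macrophage markers 10 rose, beside 16.4% of all genes, and none fell, with 8 to 12 higher when any 1 library was left out. Spp1 (osteopontin) had a slope of 0.83 ± 0.13 (edgeR adjusted p = 4.06e-05). The monocyte markers Ly6c2 and Ccr2 had slopes of 0.39 ± 0.06 and 0.38 ± 0.04, and Cd14, a co-receptor for bacterial endotoxin, of 0.34 ± 0.04 (edgeR adjusted p = 6.05e-05, 6.86e-07 and 3.20e-06). The complement genes C1qa and C1qb also rose, with shallow slopes of 0.15 and 0.16. The scavenger receptors Mrc1 and Cd163 had slopes of 0.08 and -0.46 and did not pass (edgeR adjusted p = 0.203 and 0.0681). The muscle covariate left 4 of the 15 called higher.

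Of 10 inflammatory cytokines tested 8 rose, 7 to 9 did when any 1 library was left out and 5 did with the muscle covariate. Il36g and Il1a, both cytokines of the interleukin 1 family, had slopes of 1.57 ± 0.14 and 0.91 ± 0.09 (edgeR adjusted p = 2.16e-08 and 8.50e-08). Tnf was 1.86 to 41.4 TPM in vehicle (median 8.71), 2.35 to 13.0 TPM at 30 mg/kg (median 8.35) and 3.53 to 26.5 TPM at 10 mg/kg (median 12.2), and 26 of 26 libraries exceeded the wild-type maximum of 1.61 TPM, with a slope of 0.54 ± 0.07 (edgeR adjusted p = 6.67e-06). Il1rn, the antagonist of interleukin 1, had a slope of 0.23 ± 0.04 (edgeR adjusted p = 1.71e-04), which was not called with the muscle covariate. Il33 (0.13) and Il18 (-0.04) did not pass, and Il6 and Il36a were below the expression filter.

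On the interleukin 23 axis 3 of 8 genes rose, beside 16.4% of all genes, and the 3 were effector cytokines. Il17a was 0 to 9.70 TPM in vehicle (median 0.32), 0 to 3.22 TPM at 30 mg/kg (median 0.10) and 0 to 2.0 TPM at 10 mg/kg (median 1.17), and 18 of 26 libraries exceeded the wild-type maximum of 0.06 TPM. The slopes of Il17a, Il22 and Il17f were 1.31 ± 0.16, 1.15 ± 0.21 and 0.79 ± 0.18 (edgeR adjusted p = 1.20e-06, 1.55e-04 and 0.00105). Il22 and Il17f were scarce too, with medians of 0.29 and 0.34 TPM over the 26 libraries. They exceeded the wild-type maximum in 23 and 9 libraries. Il17f did not pass with the muscle covariate or in vehicle alone (slopes 0.85 and 0.57, edgeR adjusted p = 0.116 and 0.0973). The upstream subunits Il23a and Il12b and the receptor Il23r had slopes of -0.08, 0.28 and 0.27 and did not pass (edgeR adjusted p = 0.678, 0.105 and 0.376). Their medians were 0.25, 0.28 and 0.07 TPM. The muscle covariate left 2 of the 8 called higher.

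Of the genes that epithelium makes under interleukins 22 and 17, 9 of 12 tested rose, beside the 3 members that form part of the score. Reg3g, an antimicrobial lectin, was 0.87 to 4432 TPM in vehicle (median 60.4), 1.76 to 131 TPM at 30 mg/kg (median 29.5) and 9.24 to 626 TPM at 10 mg/kg (median 94.4), against at most 2.15 TPM in wild type, with a slope of 1.29 ± 0.26 (edgeR adjusted p = 6.22e-04). Its sequence is close to that of Reg3b, so reads could be divided wrongly between them. Saa3 had a slope of 0.79 ± 0.09, Socs3, the brake on STAT3 signalling, of 0.61 ± 0.07 and Fut2, which adds fucose to the epithelial surface, of 0.49 ± 0.05 (edgeR adjusted p = 4.90e-07, 5.55e-07 and 8.44e-08). Saa1, at a median of 6038 TPM, did not pass (-0.07, edgeR adjusted p = 0.561), and it shares much sequence with Saa2. With the muscle covariate 4 of the 12 rose.

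All 18 interferon gamma genes rose, with a median slope of 0.40, and 17 or 18 did when any 1 library was left out. Cxcl9, a chemokine for T cells, was 0.89 to 68.2 TPM in vehicle (median 13.0), 1.75 to 22.8 TPM at 30 mg/kg (median 7.01) and 3.69 to 32.5 TPM at 10 mg/kg (median 24.5), and all 26 libraries exceeded the wild-type maximum of 0.56 TPM. Its slope was 0.76 ± 0.09 (edgeR adjusted p = 1.27e-06). Cxcl11, Cxcl10 and Irgm1, a GTPase of defence against intracellular microbes, had slopes of 0.63 ± 0.12, 0.51 ± 0.11 and 0.37 ± 0.07 (edgeR adjusted p = 2.05e-04, 0.00111 and 2.07e-04). Ifng itself had a slope of 0.71 at a median of 1.01 TPM (edgeR adjusted p = 6.56e-05). With the muscle covariate 1 of the 18, Cxcl9, was called (edgeR adjusted p = 0.00764), and the median slope was 0.30.

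Of 12 T cell genes 2 rose, near the background share of 16.4%, and 4 rose without 30 mg/kg library 5. Ctla4 and Icos, receptors of activated and regulatory T cells, had slopes of 0.64 ± 0.07 and 0.37 ± 0.08 (edgeR adjusted p = 6.93e-07 and 4.98e-04). The receptor subunit Cd3e had a slope of 0.07 ± 0.08 and Cd4 of 0.10 ± 0.07 (edgeR adjusted p = 0.565 and 0.295). Of 9 B cell and follicle genes 1 rose, no more than the share of all genes (16.4%), namely the chemokine Cxcl13 (0.18 ± 0.06, edgeR adjusted p = 0.0378). Its call was lost when any 1 of 8 libraries was left out, and its slope was 0.13 (edgeR adjusted p = 0.217) without vehicle library 2.

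Plasma cell genes rose in 6 of 9 cases, and in 2 of 9 with the muscle covariate. Jchain, the joining chain of secreted antibodies, had medians of 876, 1003 and 1389 TPM in vehicle, 30 mg/kg and 10 mg/kg against 239.7 TPM in wild type and a slope of 0.36 ± 0.07 (edgeR adjusted p = 1.84e-04). The IgA heavy chain Igha had a slope of 0.33 ± 0.08 (edgeR adjusted p = 0.00358). Neither passed with the muscle covariate (edgeR adjusted p = 0.107 and 0.143), where the slopes of Jchain and Igha were 0.29 and 0.35. Of 7 mast cell and eosinophil genes 3 rose and 1 fell. The mast cell proteases Mcpt1 and Mcpt2, whose reads can be divided wrongly, had slopes of 0.57 ± 0.13 and 0.64 ± 0.12 (edgeR adjusted p = 0.00128 and 1.77e-04). With the muscle covariate their slopes were 0.56 and 0.54, and neither passed (edgeR adjusted p = 0.162 and 0.139). Cma1, a mast cell chymase, did not pass (0.15 ± 0.19, edgeR adjusted p = 0.575). Kit, which marks mast cells and also the pacemaker cells of the muscle wall, had a slope of -0.18 ± 0.02 (edgeR adjusted p = 3.78e-06). With the muscle covariate none of the 7 was called higher and 1, Kit, was called lower.

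**Figure D4:**
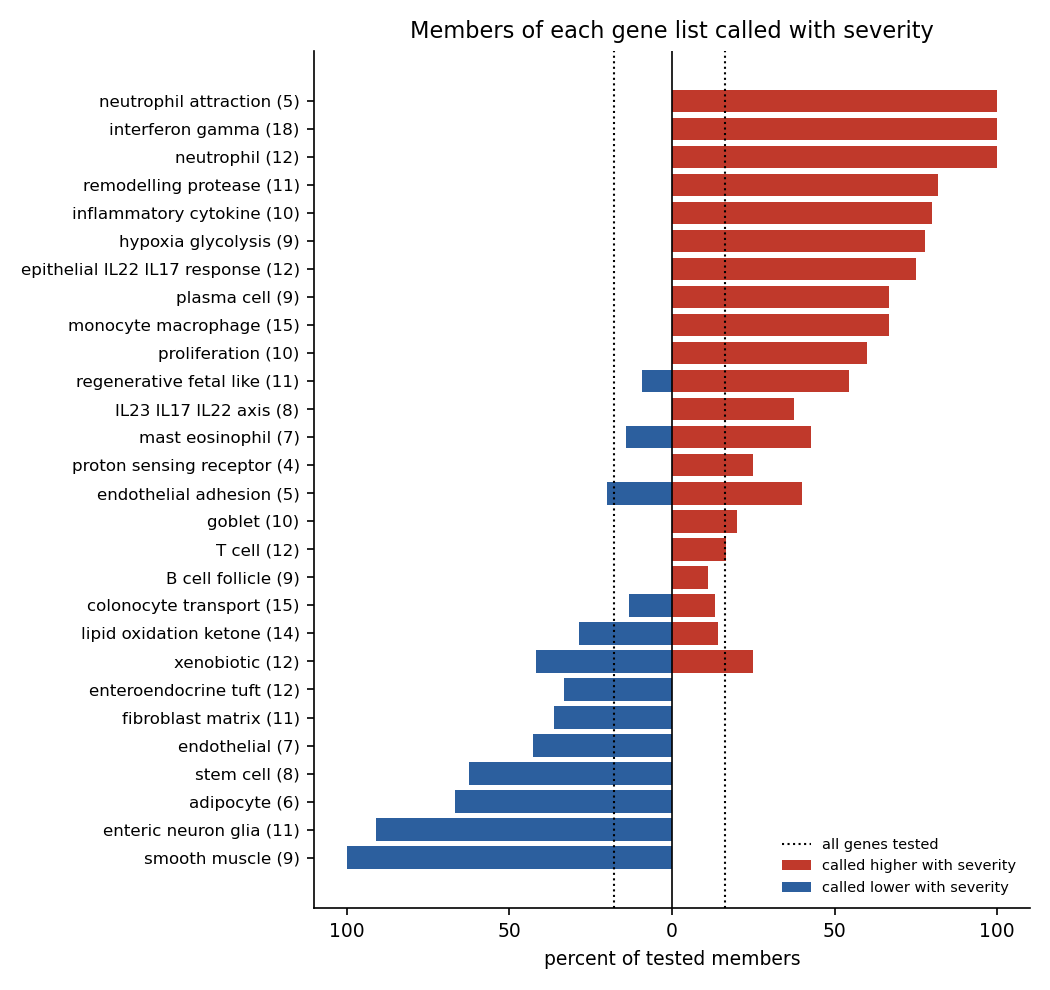
Share of the tested members of the gene lists (number tested in brackets) called higher (right, red) or lower (left, blue) with severity, in percent, with dotted lines at 16.4% and 17.8% for all genes tested. The pancreatic acinar, red blood cell, squamous and colon epithelium lists are not shown. All members of the neutrophil, neutrophil attraction and interferon gamma lists were called higher and all 9 smooth muscle genes lower.

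Of 11 matrix-remodelling genes 9 rose, and 5 did without vehicle library 2 and 2 with the muscle covariate. Plaur, the urokinase receptor, had a slope of 0.60 ± 0.06 (edgeR adjusted p = 6.59e-08). Mmp10, a stromelysin, had a slope of 1.01 ± 0.15 (edgeR adjusted p = 2.86e-05) and reached 48.1 TPM in vehicle, 31.0 TPM at 30 mg/kg and 4.39 TPM at 10 mg/kg. It did not pass with the muscle covariate (slope 0.99, edgeR adjusted p = 0.0502). Of 9 hypoxia and glycolysis genes 7 rose, and 3 did with the muscle covariate. Pfkfb3, whose product speeds glycolysis, had a slope of 0.53 ± 0.04 and the glycolytic enzyme gene Pgk1 of 0.25 ± 0.03 (edgeR adjusted p = 2.55e-09 and 2.37e-06). Vegfa (0.05) and the glucose transporter Slc2a1 (0.09) did not pass (edgeR adjusted p = 0.377 and 0.0638).

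Of 15 colonocyte transport genes 2 rose and 2 fell, close to the shares of all genes, and 4 fell without 10 mg/kg library 2. The butyrate carrier Slc16a1 and the hormone precursor Guca2a had slopes of -0.11 ± 0.03 and -0.39 ± 0.09, and the proton pump Atp12a of 0.31 ± 0.07 (edgeR adjusted p = 0.00355, 0.00241 and 0.00217). With the muscle covariate 2 of the 15 fell and none rose, beside 3.46% and 4.17% of all genes. Guca2a and Atp12a then had slopes of -0.28 and 0.08 and did not pass (edgeR adjusted p = 0.310 and 0.723). Neither passed in vehicle alone (edgeR adjusted p = 0.0678 and 0.235). The chloride exchanger Slc26a3 (-0.03) and the water channel Aqp8 (-0.03) did not pass (edgeR adjusted p = 0.731 and 0.851). Of 14 lipid oxidation and ketone genes 4 fell and 2 rose, beside 17.8% and 16.4% of all genes. With the muscle covariate 4 fell and none rose, beside 3.46% and 4.17%. Acaa2, a thiolase of fatty acid oxidation, and Ppargc1a, a coactivator of mitochondrial genes, had slopes of -0.16 ± 0.03 and -0.25 ± 0.06 (edgeR adjusted p = 3.67e-04 and 0.0018). Acadl, an acyl-CoA dehydrogenase of the same list, had a slope of 0.21 ± 0.03 (edgeR adjusted p = 9.47e-06).

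Of 12 xenobiotic genes 5 fell and 3 rose, beside 17.8% and 16.4% of all genes, and 3 fell without vehicle library 2 or 30 mg/kg library 8. None of the 12 was called with the muscle covariate. The sulfotransferase Sult1a1 had a slope of -0.41 ± 0.09 and the glutathione transferases Gstm1 and Gsta4 of -0.30 ± 0.06 and 0.25 ± 0.05 (edgeR adjusted p = 0.00125, 3.97e-04 and 1.54e-04). Of 10 goblet cell genes 2 rose, Agr2 (0.12 ± 0.03) and Spink4 (0.13 ± 0.04), near the background share of 16.4%. The count was 1 without 30 mg/kg library 8 or 10 mg/kg library 2 and 4 without 10 mg/kg library 5, and limma on TPM called 0 higher and 2 lower. The main mucin Muc2, at 1871 to 5215 TPM, had a slope of 0.07 ± 0.05 that did not pass (edgeR adjusted p = 0.346). Enteroendocrine and tuft cell genes fell in 4 of 12 cases, beside 17.8% of all genes. Among the 4 were the hormone Sst (-0.26 ± 0.07) and the tuft cell kinase Dclk1 (-0.23 ± 0.06), and the sign of both turned with the muscle covariate.

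Of 8 stem cell genes 5 fell, beside 17.8% of all genes. Sox9, a transcription factor of the crypt base, had a slope of -0.27 ± 0.04 (edgeR adjusted p = 8.88e-06). Under the muscle covariate none of the 8 was called and the signs of Lrig1 and Smoc2 turned. Of 11 genes of the regenerative, fetal-like epithelium 6 rose and 1 fell, and 1 rose with the muscle covariate. Ly6a (Sca-1) had medians of 1936, 1799.5 and 1795 TPM in vehicle, 30 mg/kg and 10 mg/kg against 118 TPM in wild type, all 26 libraries exceeded wild type, and the slope was 0.47 ± 0.08 (edgeR adjusted p = 1.36e-04), which did not pass with the muscle covariate (adjusted p = 0.107). Anxa1, an annexin, had a slope of 0.32 ± 0.04 (edgeR adjusted p = 4.66e-07). Ccn2, a target of YAP signalling on the same list, had a slope of -0.49 ± 0.15 (edgeR adjusted p = 0.0147), with the sign turned under the muscle covariate.

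Of 10 cell cycle genes 6 rose, with slopes of at most 0.20 (Ccnb1). Leaving out 1 library gave 3 without vehicle library 8 or 10, 1 without 30 mg/kg library 5 and 2 without 30 mg/kg library 8 or 10 mg/kg library 2 or 5, and limma on TPM gave 0. Under the muscle covariate 7 of the 10 were called higher.

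All 9 smooth muscle genes fell, also when any 1 library was left out, with a median slope of -0.66. Acta2, smooth muscle actin, was 49.4 to 1236 TPM in vehicle (median 358), 97.5 to 826 TPM at 30 mg/kg (median 499.9) and 47.2 to 641 TPM at 10 mg/kg (median 186), and 21 of 26 libraries lay below the wild-type range of 697 to 1707 TPM. Its slope was -0.65 ± 0.11 (edgeR adjusted p = 6.93e-05). Of 11 enteric neuron and glia genes 10 fell, with a median slope of -0.65. Uchl1, a neuronal ubiquitin hydrolase, had a slope of -0.60 ± 0.10 and the glial gene S100b of -0.89 ± 0.17 (edgeR adjusted p = 4.31e-05 and 2.15e-04). Of 11 fibroblast genes 4 fell (2 without vehicle library 3) and of 7 endothelial genes 3 fell. With the muscle score as covariate no member of these 4 lists was called, which for the smooth muscle genes follows from their place in that score.

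Markers of tissue that may be carried along in dissection were uneven between libraries. Of 8 pancreatic acinar genes none was called, although their mean log2(TPM + 1) was 0.80 to 10.7 in the knockout and 1.09 to 10.4 in the wild-type libraries. None of 5 red blood cell genes was called, with a mean of 1.64 to 8.50 against 2.30 to 5.77. Of 4 squamous genes tested Krt13 rose (0.64 ± 0.12, edgeR adjusted p = 1.90e-04) and Lor fell (-0.44 ± 0.12, edgeR adjusted p = 0.00765), at no more than 9.31 and 3.05 TPM. Of 5 endothelial adhesion genes Vcam1 and Icam1, which hold leukocytes to the vessel wall, rose (0.22 ± 0.04 and 0.23 ± 0.05, edgeR adjusted p = 1.66e-04 and 3.84e-04), beside 16.4% of all genes. On the same list Ackr1, a chemokine-binding receptor of venules, fell (-0.32 ± 0.13, edgeR adjusted p = 0.0488), and Selp and Madcam1 did not pass. The call of Ackr1 was lost when any 1 of 18 libraries was left out, up to an edgeR adjusted p of 0.194 (slope -0.26) without vehicle library 3. With the muscle covariate 1 of the 5 was called higher and the sign of Ackr1 turned.

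Among the proton-sensing receptors, the family of the compound's target, Gpr4 was 0.24 to 1.06 TPM in vehicle (median 0.53), 0.12 to 1.05 TPM at 30 mg/kg (median 0.44) and 0.35 to 1.29 TPM at 10 mg/kg (median 0.52), against 0.34 to 0.82 TPM in wild type, with a slope of 0.0092 ± 0.09 (edgeR adjusted p = 0.952). Gpr132 had a slope of 0.10 ± 0.06 that did not pass (edgeR adjusted p = 0.208). Gpr65, a receptor of leukocytes, had a slope of 0.22 ± 0.06 (edgeR adjusted p = 0.0112), which did not pass without vehicle library 2 (0.19, adjusted p = 0.0643) or with the muscle covariate (0.06, adjusted p = 0.801).

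No gene showed a slope that differed between treatments in edgeR's interaction test, which called 0 of 18590 (0.0%), with 892 at an unadjusted p under 0.05 (4.80%) and a smallest adjusted p of 0.637. DESeq2's likelihood ratio test called 2, the glutathione transferase gene Mgst1 and the gasdermin gene Gsdma (adjusted p = 0.0466 for each). Within single groups edgeR called 3958 genes in vehicle (22.6%), 171 at 30 mg/kg (0.986%) and 57 at 10 mg/kg (0.325%), of which 3532, 170 and 55 were also called over all 26 libraries. The groups differ in the number and spread of their libraries, so these counts do not compare treatments.

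The day 77 libraries had no part in the first-cohort slopes, and their TPM table was normalized separately. Severity was 4.82, 5.47, 5.93, 6.54 and 8.08 in day 77 vehicle and 1.78, 2.17, 2.25, 2.28 and 2.94 with anti-p40, with no overlap, and slopes were fitted within these groups. EdgeR called 412 of 17455 genes (2.36%), 278 higher (1.59%) and 134 lower (0.768%). Of 5980 first-cohort calls tested at day 77, 90.5% had the same sign, beside 74.3% of all genes. These values rest largely on day 77 vehicle library 3, the one with the highest score. Without it edgeR called 0 genes (561 at an unadjusted p under 0.05), and 70.77% of first-cohort calls had the same sign beside 61.91% of all genes. The count was 88, 229, 971 and 41 without vehicle library 1, 2, 4 or 5, and 712 without anti-p40 library 3.

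All 24 genes of strongest rank correlation had the same sign at day 77, and 23 did without vehicle library 3. Of the 12 rising genes 9 were called, among them Ripk3 (0.60 ± 0.12, edgeR adjusted p = 0.0317), Cxcl5 (1.60 ± 0.28, 0.0224) and Sprr2h (1.80 ± 0.16, 0.00166). Of the 12 falling genes Sun2 was called (-0.30 ± 0.06, edgeR adjusted p = 0.0382). All 18 interferon gamma genes, all 11 neutrophil markers tested and all 15 macrophage markers had positive slopes, beside 48.1% of all genes. Without vehicle library 3 these were 18 of 18, 9 of 9 and 14 of 15, beside 51.6%.

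Uniform signs at day 77 were not limited to these lists. All 10 cell cycle genes and all 5 red blood cell genes had positive slopes with or without vehicle library 3. None of 5 adipocyte genes did in either fit. Hypoxia and glycolysis genes had positive slopes in 9 of 9 cases, and in 8 of 9 without that library. Some other lists were less uniform. Plasma cell genes had positive slopes in 4 of 9 cases, and in 6 of 9 without vehicle library 3. Mast cell and eosinophil genes had them in 2 of 7 cases with or without that library. Mcpt1 and Mcpt2 had slopes of -0.50 ± 0.30 and -0.43 ± 0.26 there, and neither passed (edgeR adjusted p = 0.386 and 0.383). The 9 smooth muscle genes all had negative slopes, but 7 of the 9 had positive ones without vehicle library 3. None of the 9 B cell genes had a positive slope at day 77, and all 9 did without that library. The difference between cohorts was not tested.

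**Figure D5:**
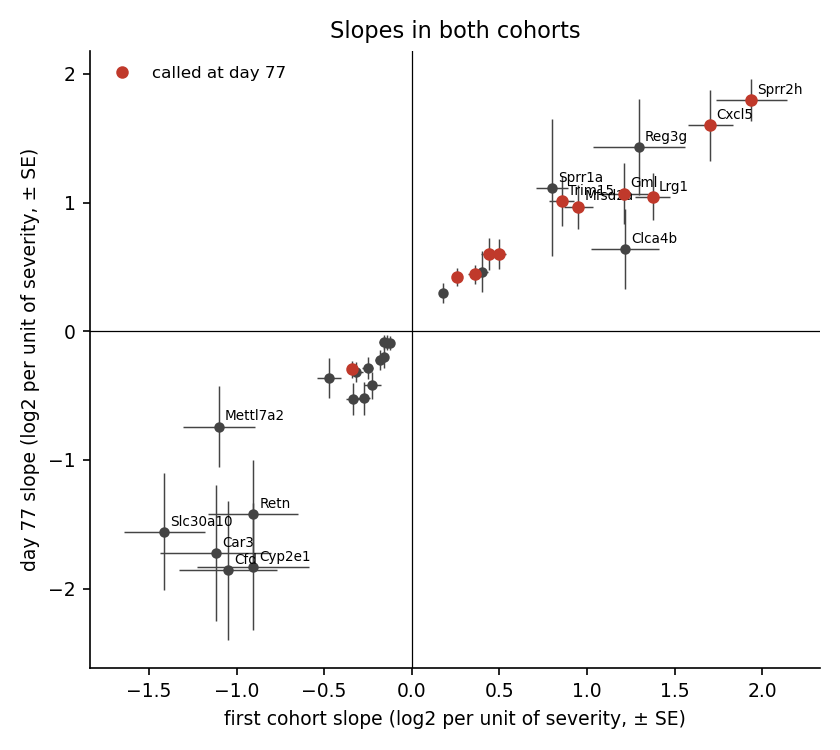
Slope on severity at day 77 (vertical axis, log2 per unit of severity) against the slope in the first cohort (horizontal axis) for the genes named by rank correlation or slope, with SE bars and red points for genes called at day 77. Each gene has the same sign in both cohorts, with Sprr2h and Cxcl5 at the upper right.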

How the data were processed

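RNA of distal colon was sequenced as poly(A) libraries. Tools named in the submitters' processing notes are STAR 2.7.8a, RSEM 1.3.3, cutadapt 3.7 and DESeq2 1.30.1, with build mm10. Annotation and strand setting are not given in the sources used here. Estimated counts per gene were deposited without normalization, and the authors' TPM are scaled to depth and gene length. GENCODE M21 (GRCm38) gave symbols and coordinates for 50376 of 50600 identifiers, and unnamed rows held at most 0.0346% of counts.

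Counts were rounded and fitted with edgeR 4.0.16 (TMM, filterByExpr, quasi-likelihood) under R 4.3.3, on group and severity, without the 6 score genes. P-values were adjusted by Benjamini-Hochberg over all genes tested. Rank correlations used log2(TPM + 1), Python 3.11.15 and 100000 permutations within groups. Alternatives were limma 3.58.1 on TPM (at least 1 TPM in 7 libraries, pseudocount 1 or 0.1), DESeq2 1.42.0, other severity definitions, a muscle covariate and left-out libraries. The fit was tested on simulated data. Libraries of a group differed pairwise by a chi-square of at least 33.2 per degree of freedom, so each counted as 1.

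Genes were named by rule: the 12 highest and 12 lowest rank correlations and the 6 largest and 6 smallest slopes among called genes of at least 5 mean TPM with the same sign in all 3 groups, the 4 list members of largest rank correlation, members called against their list, and the proton-sensing receptors. List members outside this rule were named after their values were seen, and some genes are not reported here. Score genes, lists and rules were chosen with earlier results of these data known.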

Additional observations from a re-analysis of the deposited data

Results flagged for a closer look

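Of 60 sets of 4 to 10 libraries examined, 8 held a value set far apart from the rest, where chance flags about 1 in 20. On the log2(TPM + 1) scale, vehicle library 3 stood low for Nos2 (1.88, next 5.97) and Duoxa2 (3.92, next 6.14), and 30 mg/kg library 5 stood low for Nos2 (2.99, next 5.62). Vehicle library 2 stood high for Il1b (6.97, next 3.97), and 30 mg/kg library 8 stood high for Il1b (5.63, next 3.74) and Lcn2 (4.78, next 2.91). These are the libraries with the lowest and highest scores of their groups. In wild type, library 2 stood high for S100a9 (1.70, next 0.75). The mitochondrial share of counts was 6.20% in day 77 vehicle library 5, and the next value of that group was 4.39%. The library whose labels name different doses entered no comparison, and its severity of 3.67 was above the highest wild-type score of 1.78.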

How the results depend on the processing

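The number of genes called with severity stayed within 1.5 times of 6046 under RLE scaling, DESeq2, no expression filter, limma on TPM or ranks, other severity definitions and no group term. It was 4871 to 6242 without single libraries, single score genes or the 2 farthest libraries. The muscle covariate gave 1349 calls and vehicle alone 3958. The share of calls that were higher was 31.37% with limma on log2(TPM + 1), 31.26% with a pseudocount of 0.1 and 32.43% on ranks, against 47.95%, and 44.19% to 49.74% without single libraries or score genes. DESeq2 gave 2 interaction calls against 0. At day 77 limma gave 273 calls against 412, and leaving out 1 library gave 0 to 971 calls and 70.77% to 92.05% of equal signs. Under the muscle covariate 85 of 161 named genes kept their side of the threshold and 66 lost their call with the sign kept. Signs of genes called in neither fit were not compared. A further 10 lost their call with the sign changed, namely Ackr1 (0.0762), Tie1 (0.0971), Abcc3 (-0.00265), Sst (0.0532), Dclk1 (0.0112), Lrig1 (0.00642), Smoc2 (0.0809), Ccn2 (0.207), Des (0.0289) and Sox10 (0.0174). The cause was not tested. With 1 library left out in turn, 86 slopes of named genes lost and 9 gained a call, and 4091 did neither. List counts without single libraries and by limma, and day 77 list signs without vehicle library 3, were chosen after seeing the data. No paired analysis was possible because the groups share no replicate numbers in the labels. What depth limits was not tested.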
